A study of Mus musculus with 8 samples.

Results

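The cell cycle genes described here are 40 genes, 24 that act in mitosis and 16 that act in DNA replication, of the 46517 mouse genes counted in single liver cells. They were taken by name, for what their products are known to do, and all 40 were found in the table of counts. Cells from the livers of adult male and female mice, aged between 8 weeks and 1 year, were sorted into plates and sequenced by Smart-seq2, a method that reads full-length polyadenylated RNA of 1 cell per well. The mice were C57BL6/J or carried heterozygous reporter transgenes (PdgfrbGFP, PdgfraH2bGFP, Cspg4dsRED, Acta2GFP, Cldn5GFP) that light up mural cells, fibroblasts, smooth muscle or endothelium, and no treatment is given. The 3491 cells fall into 4 classes, and each of the 8 samples of the series is the pool of male or of female cells of a class: 998 and 339 mesenchymal, 655 and 451 endothelial, 255 and 396 immune, 358 and 39 epithelial cells. A pool mixes mice and strains that no label separates, and the numbers of cells reflect the sort, on antibodies against CD31, VE-cadherin, EPCAM, CD68 or PDGFRα, on the reporters, or without selection for hepatocytes. Each class carried its defining markers: all 7 Kupffer cell, 5 endothelial and 5 mesenchymal markers, 4 of 4 cholangiocyte and 3 of 4 hepatocyte markers were called higher in the pools of their class.

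A cell that divides first copies its DNA and then separates the copies. Before DNA synthesis, E2F factors are released from the Rb family. These raise the genes of the MCM helicase, of PCNA, the clamp of the DNA polymerases, and of the enzymes that supply deoxynucleotides. The genes of mitosis follow, under B-MYB, FOXM1 and the CHR and CCAAT elements of their promoters, through which the DREAM complex keeps them silent in resting cells. In the adult liver most hepatocytes, stellate cells and sinusoidal endothelial cells rest, while Kupffer cells, the resident macrophages of the sinusoids, are known to renew themselves by division in place.

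The promoters of the members carry this division in their letters. RefSeq windows on GRCm38.p6, from 250 bases before to 50 after the annotated start, were found for 34 of the 40 genes, and for 26 of these the bases after the start lay near the 5′ end of an annotated transcript. The CHR element (TTTGAA or, on the other strand, TTCAAA) occurred in 75.0% of the 20 mitotic windows, in 14.3% of the 14 replication windows and in 18.1% of all 27025 windows. The CCAAT box (CCAAT or ATTGG) occurred in 85.0%, 71.4% and 37.9%, and both elements together in 70.0%, 14.3% and 7.1%. The E2F-type words searched were TTCCCGC and TTGGCGC, with the variants TTCGCGC and also TTGCCGC, on both strands, where they can overlap each other. At least 1 of them occurred in 3 of the 20 mitotic windows, in 57.1% of the replication windows and in 9.7% of all windows. The 6 windows below run from 160 bases before to 30 after the start, 5′ to 3′ on the strand of the gene, and show 3 mitotic genes with CHR and CCAAT elements and 3 MCM genes with E2F-type words and CCAAT boxes. Ccnb2 lies at chr9:70421525-70421714 on the minus strand, Cdk1 at chr10:69352883-69353072 (minus), Top2a at chr11:99024160-99024349 (minus), Mcm3 at chr1:20820283-20820472 (minus), Mcm5 at chr8:75109349-75109538 (plus) and Mcm6 at chr1:128359676-128359865 (minus). Capitals mark the matches. A match is a match of letters and not a binding site.
Ccnb2: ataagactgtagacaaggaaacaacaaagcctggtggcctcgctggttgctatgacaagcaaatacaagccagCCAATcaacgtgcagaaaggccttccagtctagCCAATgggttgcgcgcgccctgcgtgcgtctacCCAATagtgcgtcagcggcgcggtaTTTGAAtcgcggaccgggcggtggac
Cdk1: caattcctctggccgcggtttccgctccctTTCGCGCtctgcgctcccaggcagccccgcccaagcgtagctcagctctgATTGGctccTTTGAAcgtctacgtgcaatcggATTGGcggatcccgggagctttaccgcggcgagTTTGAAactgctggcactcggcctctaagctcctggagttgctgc
Top2a: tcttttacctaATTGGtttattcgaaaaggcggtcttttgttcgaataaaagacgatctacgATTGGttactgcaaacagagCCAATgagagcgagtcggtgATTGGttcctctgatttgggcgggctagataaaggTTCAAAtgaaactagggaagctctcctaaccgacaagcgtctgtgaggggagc
Mcm3: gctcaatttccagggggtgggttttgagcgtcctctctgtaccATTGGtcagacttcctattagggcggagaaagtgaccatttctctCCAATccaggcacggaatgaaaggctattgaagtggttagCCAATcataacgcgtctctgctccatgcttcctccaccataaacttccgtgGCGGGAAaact
Mcm5: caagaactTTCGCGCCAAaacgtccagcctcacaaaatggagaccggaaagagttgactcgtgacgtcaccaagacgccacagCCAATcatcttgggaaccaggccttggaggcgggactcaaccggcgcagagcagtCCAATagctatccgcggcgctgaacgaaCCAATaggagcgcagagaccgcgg
Mcm6: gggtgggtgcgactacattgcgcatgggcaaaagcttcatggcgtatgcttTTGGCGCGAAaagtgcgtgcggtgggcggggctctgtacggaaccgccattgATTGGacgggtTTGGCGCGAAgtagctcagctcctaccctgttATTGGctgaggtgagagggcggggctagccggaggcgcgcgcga
The CCAAT boxes of Ccnb2 begin 87, 54 and 21 bases before the start and the CHR element 4 bases after it. In Cdk1 the boxes begin at 80 and 48 bases before the start and the CHR elements at 71 and 15. Cdk1 also holds an E2F-type word, which begins 130 bases before the start. The longer capital runs of Mcm5 and Mcm6 are E2F-type words that overlap on opposite strands.

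Across the 4 classes, the mitotic genes were highest in the immune pools. Counts were summed over the cells of each pool and are given as CPM, counts scaled to a total of 1000000 per pool, and each class was set against the mean of the other 3 with the quasi-likelihood test of edgeR. Of the 24 mitotic genes, 20 were called higher in immune cells (adjusted p under 0.05, Benjamini-Hochberg over all genes) and 0 lower, where 7.92% of the 24046 genes tested were called higher and 5.25% lower (22 and 0 with DESeq2, where 11% and 12.9% of all genes were). The median log2 fold change of the 24 genes was 3.68, against 0.09 over all genes tested. Of the 16 replication genes 4 were called higher, Mcm3, Mcm5, Tk1 and Rrm2, and 0 lower (6 and 0 with DESeq2), with a median log2 fold change of 1.32. At an unadjusted p under 0.05 there were 22 mitotic and 6 replication genes, and 6505 of the 24046 genes tested. Both immune pools lay above the other 6 pools for 20 mitotic and 7 replication genes, and for 9.6% of all genes. With 1 pool left out at a time fewer mitotic genes were called, and every gene called here kept its direction. A class of 2 pools gives few degrees of freedom, and the tests measure the spread between these pools only, since nothing says how mice were shared among them.

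Among the cyclins and kinases that drive entry into mitosis, Cdk1, the kinase at its centre, was counted at 24.1 and 23.1 CPM in the female and male immune pools. It was counted at 6.34 and 9.07 CPM in the endothelial, 3.76 and 3.48 CPM in the mesenchymal and 0.312 and 0.315 CPM in the epithelial pools. The immune pools thus lay above all others, and the endothelial pools above the mesenchymal and epithelial ones, with a log2 fold change for immune cells of 3.62 (SE 0.53, adjusted p = 0.00373). Ccnb1, the B-type cyclin that activates it, was counted at 6.90 and 7.84 CPM in immune cells and at no more than 0.141 CPM in the other pools, with none in female epithelial cells (log2 fold change 6.44, SE 0.85, adjusted p = 0.00243). Ccnb2 was counted at 9.22 and 8.66 CPM in immune cells and at no more than 1.26 CPM in the other pools (5.52, SE 1.26, adjusted p = 0.0236). Ccna2, the cyclin of S phase and G2, differed least among the called cyclins, with 26.1 and 37.9 CPM in immune cells and 6.47 to 15.1 CPM in the others (1.80, SE 0.49, adjusted p = 0.046). Plk1, a kinase of spindle assembly and exit from mitosis, was counted at 16.2 and 16.1 CPM in immune cells and at 0.0326 to 1.59 CPM elsewhere (5.62, SE 0.82, adjusted p = 0.00373). Aurka, its partner at the spindle poles, rose by 3.65 on the log2 scale in immune cells (SE 0.92, adjusted p = 0.0351).

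Among chromosome and kinetochore genes, Mki67, whose protein coats mitotic chromosomes and is the common stain for proliferation, was counted at 29.0 and 22.9 CPM in the female and male immune pools. It was counted at 1.92 and 0.294 CPM in endothelial, 0.312 and 1.15 CPM in epithelial and 0.0264 and 0.0458 CPM in mesenchymal cells. The immune pools stood far above the rest (log2 fold change 6.42, SE 0.86, adjusted p = 0.00255), and the mesenchymal pools below all others. Top2a, the topoisomerase that untangles sister chromatids, was counted at 22.0 and 19.1 CPM in immune cells and at 0.076 to 3.38 CPM in the other pools (4.65, SE 0.92, adjusted p = 0.0135). Aurkb and Birc5, both of the chromosomal passenger complex, were called too: Aurkb reached 19.1 and 24.9 CPM in immune cells and at most 0.244 CPM elsewhere (9.23, SE 0.81, adjusted p = 0.000452). The kinetochore genes Ndc80, Cenpe and Cenpf and the checkpoint kinase gene Bub1 were called higher in immune cells, with log2 fold changes from 3.17 (Cenpf) to 7.61 (Ndc80). Bub1b, another checkpoint gene, was not called, with 16.1 and 3.43 CPM in immune and 19.6 and 6.45 CPM in endothelial cells, which overlap. Where some of the other pools are at 0, as for Bub1 in 3 of them, the fitted fold depends on the prior count of the test.

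Cenpa, the histone H3 variant that marks centromeres, was the mitotic gene whose class pattern stood apart. It was counted at 66.4 and 120.0 CPM in the female and male endothelial pools, 32.1 and 75.1 CPM in the immune, 18.9 and 13.2 CPM in the mesenchymal and 1.88 and 2.20 CPM in the epithelial pools. The endothelial and immune ranges overlap, and both lie above the other classes. In the fit Cenpa differed by 2.86 (SE 0.43, adjusted p = 0.0074) for endothelial and by 1.99 (SE 0.44, adjusted p = 0.0208) for immune cells, on the log2 scale. It was counted in 41.4% of endothelial cells, and 19.3% of them held 20 counts or more, the limit at which the study takes a gene as expressed.

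Of the spindle and cytokinesis genes, Kif23, a motor of the central spindle, was counted at 30.5 and 24.3 CPM in immune cells and at 0.0176 to 0.312 CPM in the other 6 pools (log2 fold change 8.80, SE 0.76, adjusted p = 0.000416). Prc1, which bundles the midzone microtubules that Kif23 acts on, reached 19.8 and 14.01 CPM in immune and 0.302 to 11.6 CPM in the other pools (3.54, SE 0.79, adjusted p = 0.0217). Kif11, the motor that separates the spindle poles, and Tpx2, which activates Aurora A, were called with 3.56 (SE 0.98, adjusted p = 0.0486) and 2.75 (SE 0.65, adjusted p = 0.0267). Ube2c, the ubiquitin carrier of the anaphase-promoting complex, rose by 3.70 (SE 0.77, adjusted p = 0.0162). Cdc20, which activates that complex, was counted at 11.2 and 7.47 CPM in immune and at 0 to 3.18 CPM in other pools and was not called (2.55, SE 1.05, adjusted p = 0.162). Nusap1 was not called either (adjusted p = 0.118). Kif20a was nearly even, with 15.9 and 14.1 CPM in immune and 9.52 to 18.3 CPM in the other pools (0.22, SE 0.52, adjusted p = 0.876), and 29.3% of its exonic bases in the annotation are shared with Cdc23.

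The replication genes were spread more evenly over the classes. Tk1, the thymidine kinase of S phase, was counted at 103.3 and 90.8 CPM in the female and male immune pools, 5.31 and 30.4 CPM in epithelial, 3.03 and 7.43 CPM in endothelial and 3.36 and 3.68 CPM in mesenchymal cells. It was the clearest of the 16 (log2 fold change 3.90, SE 0.62, adjusted p = 0.00563). Mcm5, a helicase subunit, was counted at 57.7 and 59.3 CPM in immune and 6.84 to 26.7 CPM in other cells (2.13, SE 0.48, adjusted p = 0.0234). Rrm2, the subunit of ribonucleotide reductase that is made in S phase, was counted at 12.4 and 14.5 CPM in immune, 4.76 and 2.75 CPM in mesenchymal, 0.156 and 6.43 CPM in epithelial and 0.0181 and 0.0404 CPM in endothelial cells (4.30, SE 0.99, adjusted p = 0.0251). Its partner Rrm1 was even across the classes, at 24.2 to 55.5 CPM (0.23, SE 0.45, adjusted p = 0.837). The immune pools were thus highest for Tk1, Mcm5 and Rrm2 but lay among the others for Rrm1.

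The 6 subunits of the MCM helicase act as a ring with 1 copy of each, yet their transcripts did not share an order of classes. Mcm3 was counted at 128.1 and 96.6 CPM in the female and male endothelial and 85.2 and 65.7 CPM in the immune pools, against 25.6 and 18.4 CPM in mesenchymal and 6.09 and 11.5 CPM in epithelial cells. It was called higher in endothelial (2.12, SE 0.38, adjusted p = 0.0147) and immune cells (1.54, SE 0.39, adjusted p = 0.036) and lower in epithelial cells (-2.73, SE 0.50, adjusted p = 0.0104). Mcm6, by contrast, was not low in epithelial cells, with 151.9 and 91.3 CPM there, 111.6 and 78.8 CPM in endothelial, 50.7 and 45.3 CPM in immune and 53.0 and 38.4 CPM in mesenchymal cells, and was not called in immune cells (-0.63, SE 0.37, adjusted p = 0.33). Mcm2, Mcm4 and Mcm7 were not called in immune cells, with log2 fold changes of 1.03, 0.55 and 0.02. Pcna was counted at 82.7 and 130.7 CPM in immune and 43.1 to 66.4 CPM in the other pools, without overlap but short of the threshold (1.10, SE 0.37, adjusted p = 0.0969). The licensing and origin genes Cdc6 and Cdc45, the cyclins Ccne1 and Ccne2, Tyms and Uhrf1 were not called either.

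**Figure D1:**
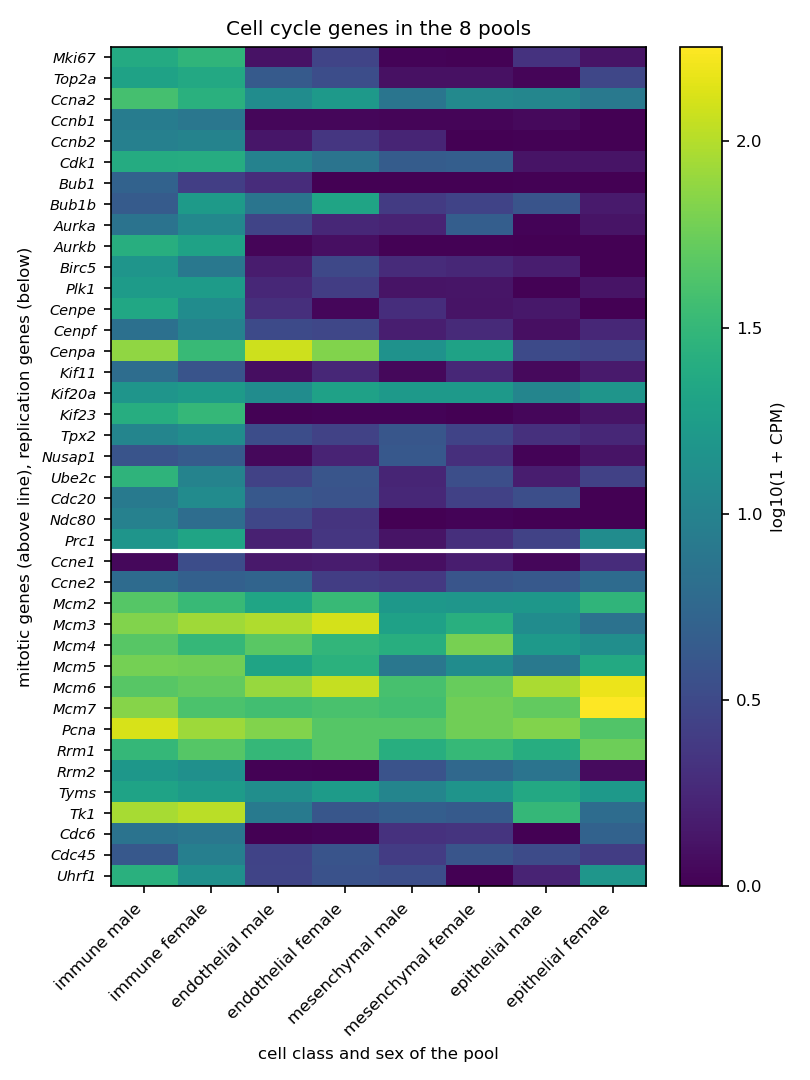
Level of each of the 40 genes (rows) in the 8 pools (columns), coloured by log10(1 + CPM) of the counts summed over the pool, with mitotic genes above the white line and replication genes below it. The immune columns are the brightest for 20 of 24 mitotic genes, Cenpa is bright in the endothelial and immune columns, and 7 of the 16 replication genes are at 9.61 CPM or more in all 8 pools.

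The levels of a pool can come from many cells with a little of a transcript or from few cells with much, so the genes were followed cell by cell. A mitotic gene was counted in few cells: 1108 of the 3491 cells had none of the 24, and 1002 had 1 of them. At least 8 of the 24, each with 1 count or more, were found in 43 cells, and a further 55 cells held 6 or 7. These 43 were 34 of 651 immune cells (5.22%, exact binomial interval 3.64 to 7.22%), 6 of 1106 endothelial cells (0.542%, 0.199 to 1.18%), 2 of 1337 mesenchymal cells (0.15%, 0.0181 to 0.539%) and 1 of 397 epithelial cells (0.252%, 0.00638 to 1.40%). The intervals cover counting error only, since cells of a pool are not replicates. By pool the share was 6.57% in female and 3.137% in male immune cells and at most 0.887% in the other 6 pools. The mean of the immune pools exceeded that of the others by 4.57 percentage points (4.85 against 0.279%; exact permutation test over the 8 pools, two-sided p = 0.0357, adjusted over the 4 classes 0.143, each the smallest value that 2 against 6 pools allow).

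When a gene was taken as expressed only from 20 counts, 17 cells held at least 8 of the 24 mitotic genes, 16 of them immune and 1 endothelial. These 17 are called mitotic-high cells below. The immune share was then close in both pools, 10 of 396 female cells (2.53%, 1.22 to 4.59%) and 6 of 255 male cells (2.35%, 0.868 to 5.05%), of which 8 and 2 were led by Kupffer cell markers. None of the 397 epithelial cells reached the limit, which allows a share of up to 0.756%, and none of the 1337 mesenchymal cells, which allows up to 0.224%. The cell nearest below the limit, a cell of the monocyte cluster #i2c, had 7 genes at 20 counts, and a hepatocyte with only 52290 counts had 3 at 20 counts and 9 at 1 count. The 17 cells held 0.589% of all counts and 29.6% of all counts of the 24 mitotic genes. The cells were chosen by these same genes, so the share is a description. They came from 7 plates, 11 were female and 6 male, and they had 60790 to 845310 counts and 2076 to 8080 genes per cell. No doublet caller was run, and the study had removed cells with very many genes.

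**Figure D2:**
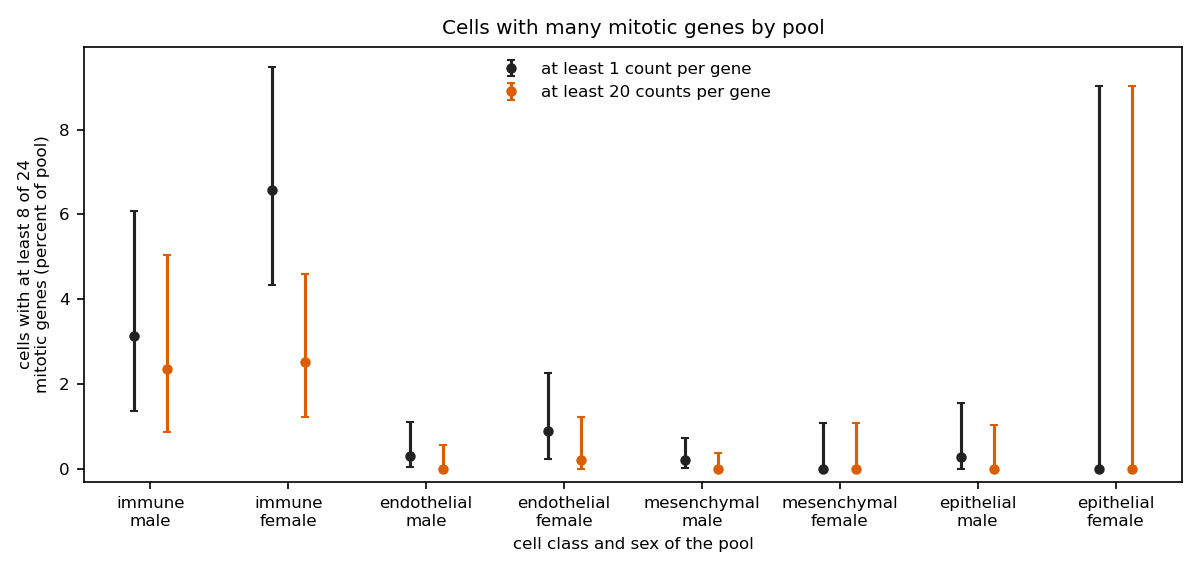
Percent of the cells of each pool with at least 8 of the 24 mitotic genes, at 1 count per gene (black) and at 20 counts per gene (orange), with exact binomial intervals at 95% that cover counting error only. The 2 immune pools are further apart at 1 count (3.137% male, 6.57% female, with overlapping intervals) than at 20 counts (2.35% and 2.53%), and the wide bar of female epithelial cells reflects 39 cells.

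All 16 immune mitotic-high cells belonged to cluster #i4 of the study, which its finer clustering splits mainly into #i5c, named for its cycling Kupffer cells, and #i9c, named for endothelial transcripts in Kupffer cells. Clusters were drawn from these same counts, so the levels are a description. Cluster #i5c held 24 cells, of which 12 were mitotic-high (exact binomial interval 29.1 to 70.9%), and #i9c held 26 cells, of which 4 were. Summed over the 24 mitotic genes, #i5c reached 6227 CPM in its 5 male and 4509 CPM in its 19 female cells, #i9c 3807 and 979 CPM, and the 4 Kupffer cell clusters outside #i4 (#i1, #i3, #i6 and #i7) 127 to 200.1 CPM over both sexes, with 557.8 CPM in the 10 male cells of #i3 as the highest by sex. The 24 cells of #i5c came from both sexes, and the level was high in each.

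By their markers, 10 of the 16 cells were led by Kupffer cell genes. These 10, all of #i5c, 8 female and 2 male from 3 plates, each counted at least 5 of 7 Kupffer cell markers, at a summed level of 9591 to 31598 CPM, against a median of 17962 CPM in the 480 Kupffer cells outside #i4. The other 6 held 0 to 386 CPM of these markers. Of these 6, 4 carried all 5 endothelial markers (Pecam1, Kdr, Tie1, Ptprb, Stab2) at a summed 4094, 4759, 7518 and 8738 CPM, 3 of them in #i9c, against 58.9 to 1764 CPM in the 10 Kupffer cells. Another cell of #i5c carried monocyte (1614 CPM), dendritic cell (434.1 CPM) and B cell (468.7 CPM) markers, and the last, of #i9c, from a plate whose label names Acta2, had no Kupffer cell marker, 159.2 CPM of endothelial, 75.4 CPM of mesenchymal (5 of 5 counted) and 2697 CPM of hepatocyte markers. Endothelial markers were at a median of 4046 CPM in all of #i9c, against 369.4 CPM in Kupffer cells outside #i4. So the immune label covers mitotic-high cells of several marker patterns, and erythroid markers reached at most 1.4 CPM and T and NK cell markers at most 8.0 CPM in any of the 16.

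The single mitotic-high cell of another class was endothelial, from a female mouse and the central vein cluster #e11c. It counted 13 mitotic genes, 9 of them at 20 counts, and 15 of the 16 replication genes. It carried all 5 endothelial markers at a summed 3126 CPM and no Kupffer cell marker. It held 89.2% of the Mki67 counts and 75.8% of the Top2a counts of the female endothelial pool, so those pool levels rest on this cell. The pool of male endothelial cells had no such cell and was counted at 3.38 CPM for Top2a, above the 2.39 CPM of the female pool, with 2 cells at 20 counts.

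The 26 cells that reached 8 mitotic genes at 1 count but not at 20 were set apart by that limit, so lower counts follow from it. Their median was 62.5 counts over the 24 genes, against a median of 2087 and a lowest value of 437 in the 17 mitotic-high cells, and 11 of the 26 had no mitotic gene at 20 counts. Raw counts also depend on depth: among the 26, cells with 47063, 48198 and 52290 counts in all held 240, 291 and 323 mitotic counts. The mitotic-high endothelial cell held 1434 of 319630. Of the 26, 18 were immune, and 17 lay on 1 female plate, the plate of the cell with the most mitotic counts of all (9213 of its 845310 counts). In the plate row of that cell, 8 of the 18 cells that were not mitotic-high reached 8 genes, with a median of 6.5 mitotic genes per cell, against medians of 1.0 to 4.0 in the other rows. On all 6 plates where a mitotic-high cell shared its row with cells that were neither mitotic-high nor of #i5c, these neighbours counted more mitotic genes (means of 1.0 to 3.7 per cell) than cells in rows and columns without a mitotic-high cell (0.406 to 2.557), and so did the cells of the same columns. Whether reads of a well were assigned to its neighbours was not tested, and the shares at 1 count, 5.22% of immune cells among them, include such low counts. All 14 Kupffer cells outside #i4 with 8 genes at 1 count lay on that same female plate, and 0 of these 480 cells had 8 genes at 20 counts. Without that plate the immune excess at 1 count was 2.84 percentage points, with a share of 3.137% in the male pool as before.

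The mitotic-high cells were chosen by the mitotic genes, so their shares of these counts are a description. Within these cells the genes did not come as a block. Over the 16 immune cells a mitotic gene was counted in 7 to 16 cells (median 12.5) and reached 20 counts in 4 to 14 (median 9.0). Top2a was counted in all 16 and Ube2c and Prc1 in 15, whereas Ccnb1 was counted in 7 and Aurka and Cenpf in 8. Mki67 and Top2a each reached 20 counts in 14 cells, and Bub1 in 4. The mitotic genes also differed in how far the 17 cells carried them. Of all counts of Ccnb1 in the 3491 cells 79.99% lay in the 17, of Plk1 77.5% and of Bub1 71.0%, against 4.9% of Cenpa, 10.6% of Kif20a, 23.04% of Bub1b and 23.8% of Ccna2. Cenpa, Kif20a and Ccna2 were also the mitotic genes counted most widely in the 3419 cells that are neither of #i4 nor hold 8 mitotic genes, in 23.7%, 17.5% and 14.7% of them. For the 16 replication genes the share of counts in the 17 cells was 1.95% (Mcm6) to 59.5% (Ccne1), with a median of 7.86%. Rrm2 (55.0%), Uhrf1 (58.2%) and Ccne1 had most of their counts in these cells, while Pcna was counted in 44.1% of the 3419 other cells.

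Cells rich in replication genes were only in part the same cells. At least 8 of the 16 replication genes at 20 counts were found in 20 cells, of which 8 were mitotic-high and 12 were not, and 9 mitotic-high cells lacked them. The 12 were 5 cells of #i5c, 4 of the monocyte cluster #i2c, 2 Kupffer cells of #i10c and 1 sinusoidal endothelial cell of #e9c. The 12 cells of #i5c that were not mitotic-high had a replication score, the mean of ln(1 + counts per 10000) over the 16 genes, of 0.382 to 1.23 (median 0.735), against a median of 0.0835 over immune cells. Their mitotic scores ran from 0.003 to 0.726, and at most 5 mitotic genes reached 20 counts. So #i5c held cells high for both gene groups, for mitotic genes and for replication genes. The #i2c cell with the highest replication score, 1.42, counted 11 replication and 6 mitotic genes and carried monocyte markers at 2830 CPM. The other 3 #i2c cells carried these markers at 912.7, 173.3 and 0 CPM, each below their Kupffer cell markers (1586, 606.6 and 901.3 CPM), and the last also had 1372 CPM of B cell markers. The replication genes of #i5c at 20 counts most often were Pcna and Tk1, in 18 of 24 cells each, and Mcm7 in 16, and the mitotic ones were Top2a in 15, Mki67 in 13 and Cdk1 in 12.

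**Figure D3:**
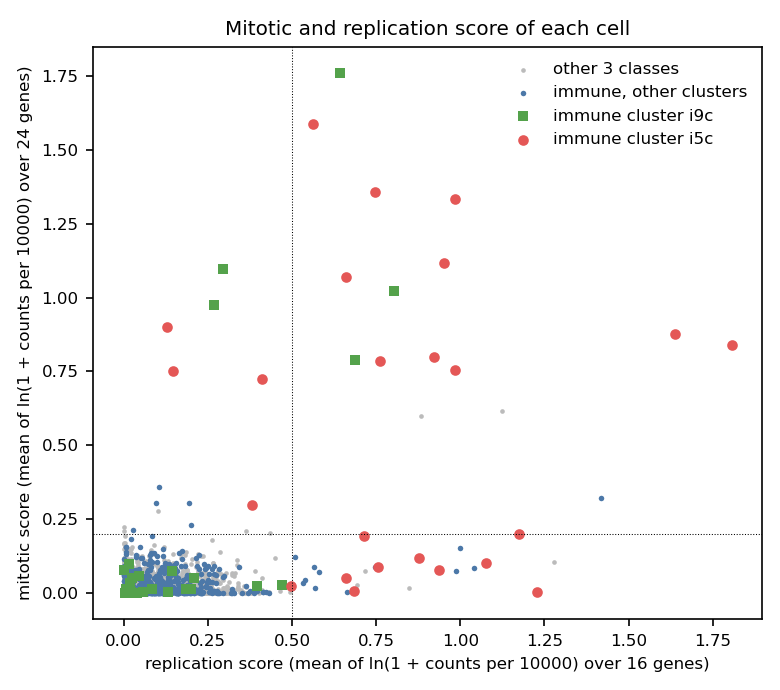
Replication score (x axis) and mitotic score (y axis) of each of the 3491 cells, each the mean over its genes of ln(1 + counts per 10000), with cells of clusters #i5c (red circles) and #i9c (green squares), other immune cells (blue) and the other 3 classes (grey). Most cells lie near the origin, and #i5c spreads along both axes, up to a mitotic score of 1.59 and a replication score of 1.81. The dotted lines, at 0.2 and 0.5, are guides.

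**Figure D4:**
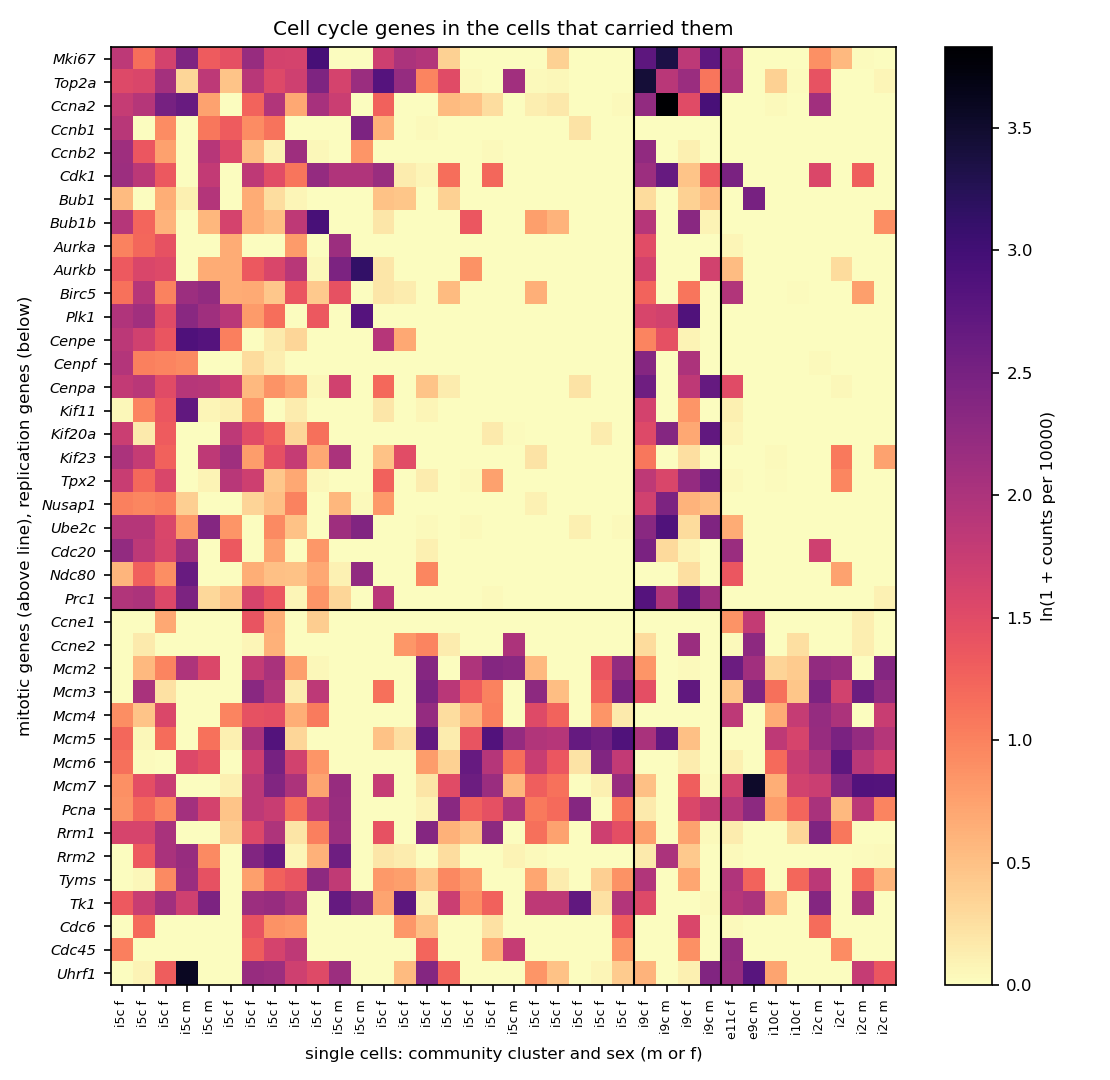
ln(1 + counts per 10000) of the 40 genes (rows, mitotic above and replication below the line) in the 24 cells of #i5c, the 4 mitotic-high cells of #i9c and the other cells with a high mitotic or replication count (columns, named by cluster and sex, m or f). The cells of #i5c are ordered by mitotic score. At limits of 0.2 on the mitotic and 0.5 on the replication score, 10 of the 24 are over both, 4 over the mitotic only, 9 over the replication only and 1 over neither. Of the 4 #i9c cells 2 counted 11 and 13 of the 16 replication genes and 2 counted 2 and 5.

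With the 48 cells of #i4 left out, part of the immune difference remained. The summed level of the 24 mitotic genes fell from 350.1 to 140.2 CPM in the female and from 405.0 to 173.7 CPM in the male immune pool, against 149.7 and 180.4 CPM in endothelial, 65.8 and 52.6 CPM in mesenchymal and 42.8 and 33.6 CPM in epithelial cells. Of the 23 mitotic genes that passed the filter, 5 were still called higher in immune cells, Mki67, Kif23, Cdk1, Aurkb and Ccnb1, and of the replication genes Tk1, where 7.79% of all genes were called higher. Their log2 fold changes were 4.88, 8.36, 2.42, 7.93, 3.95 and 3.69. The median over the mitotic genes was 2.19, against 3.66 for the same genes with all cells, and over the replication genes 0.08, against 1.32. Rrm2 turned from 4.30 to -0.135. Cluster #i4 was drawn with these genes, so this is a description of where their counts lay.

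Kif23 and Tk1 hardly moved without #i4, and both were counted widely in Kupffer cells. Of the 480 Kupffer cells outside #i4, 102 counted Kif23 (21.3%), with 32 of them at 20 counts, whereas 0.995% of endothelial, 0.673% of mesenchymal and 1.76% of epithelial cells did, none at 20 counts. Tk1 was counted in 283 of the 480 (59.0%), against 13.7%, 7.85% and 29.7%. Mki67 was counted in 67 of the 480 (13.96%), against 1.45%, 0.524% and 2.52%, and Aurkb in 32 (6.67%), against 1.27%, 0.374% and 0.252%. The part of the plate in these shares was not tested.

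**Figure D5:**
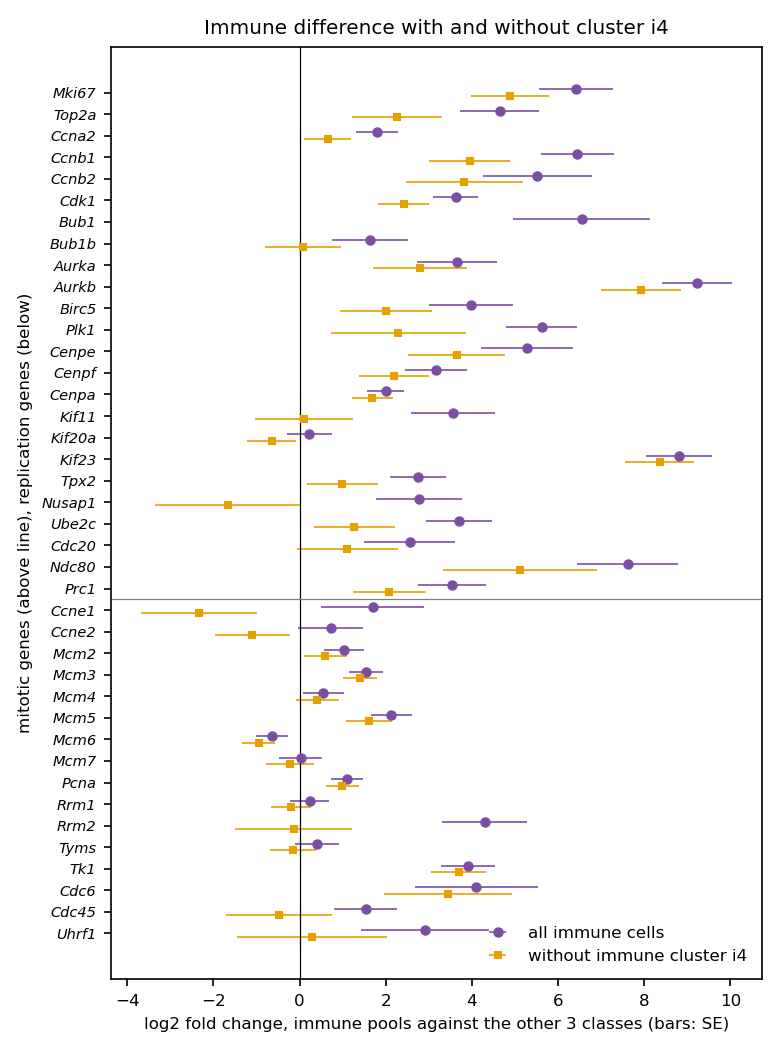
Log2 fold change of the immune pools against the other 3 classes (edgeR, points with SE) for each gene with all immune cells (purple) and without cluster #i4 (orange), with mitotic genes above the line. Kif23 and Tk1 stay near their value, Aurkb moves from 9.23 to 7.93, Rrm2 moves from 4.30 to -0.135, and Bub1 has no orange point because it did not pass the filter.

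In the other classes few members were called. In endothelial cells Cenpa and Mcm3 were called higher, as given above, where 5.33% of all genes were, and Kif23 (-3.77, SE 0.96, adjusted p = 0.0496) and Rrm2 (-7.59, SE 1.73, adjusted p = 0.0339) lower, where 2.96% were. The Rrm2 counts behind this are 9 over 1106 endothelial cells. Kif23 was no longer called lower with the sex of the pool as a replicate block, with cells thinned to 50000 counts or without #i4. In epithelial cells Cdk1 (-4.83), Cenpa (-4.44), Aurkb (-5.50), Ndc80 (-9.31) and Mcm3 were called lower, 5 of 40 where 4.05% of all genes were, and the median of all genes was itself shifted by -0.27. Ndc80 had 0 counts in both epithelial pools (SE 2.39, adjusted p = 0.0468) and 7 and 1 in the female and male mesenchymal pools. Aurkb had 0 and 1 counts in the female and male epithelial pools. In mesenchymal cells, which include stellate cells, fibroblasts and mural cells, Mki67 (-6.17, SE 1.32, adjusted p = 0.019) and Kif23 (-3.84, SE 0.96, adjusted p = 0.0354) were called lower, where 2.33% of all genes were. Each of these contrasts has the immune pools on its other side. None of the 40 genes was called between female and male pools (0 with edgeR and 0 with DESeq2, where these called 0.0208% and 2.48% of all genes), and 1 had an unadjusted p under 0.05, Cenpe (-2.28 for female minus male, SE 0.86, adjusted p = 0.607). The 2 mesenchymal cells with 8 mitotic genes at 1 count were male and of clusters #m5 and #m8.

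Other genes of the pathway were read from lists set by their known roles. Of 42 further mitotic genes, 18 were called higher in immune cells and 0 lower, where 7.92% and 5.25% of all genes were. Among the 18 were Pbk (10.83), Cdc25c (10.25), Kif2c (7.95) and Melk (7.08), and the median log2 fold change of the 42 was 2.70. Of 35 further replication genes 3 were called higher, near the share over all genes, 7.92%. They were Gmnn (3.31), the inhibitor of relicensing, Cdt1 (3.19), the licensing factor it binds, and Fen1 (2.13), a nuclease that trims Okazaki fragments. In the Rb and E2F family E2f1 (3.78) was called, 1 of 15, where 7.92% of all genes were called higher. DESeq2 called 9 of the 35 further replication genes and 3 of the 15 genes of the Rb and E2F family higher, where it called 11% of all genes. Of 10 G1 cyclins and CDKs and 14 CDK inhibitors and antiproliferative genes 0 were called in immune cells by edgeR. At an unadjusted p under 0.05 there were 2 and 1, where 6505 of the 24046 genes tested were. DESeq2 called 1 of the G1 cyclins and CDKs lower and 0 of the inhibitors. Over these 5 lists, 116 genes in all, 3 were called higher and 2 lower in endothelial, 4 and 2 in epithelial and 2 and 4 in mesenchymal cells, which are shares below those over all genes except for the lower calls in mesenchymal cells. In endothelial cells Rb1 (2.19), E2f7 (4.97) and Orc6 (1.67) were higher and Myc (-3.27) and Gadd45b (-2.46) lower, where 5.33% and 2.96% of all genes were. In epithelial cells Ccnd1, the cyclin that opens passage through G1, was higher (1.99, SE 0.33, adjusted p = 0.00643), with Nek2 (6.46), Stmn1 (2.07) and Mcm10 (5.22), where 8.37% of all genes were called higher, while Kif22 (-6.18) and Gadd45g (-3.11) were lower, where 4.05% were. In mesenchymal cells Gadd45b (2.12) and Gadd45g (1.69), stress genes that hold the cycle, were higher, where 9.47% of all genes were, and Ccnd1 (-1.62), Ckap2l (-7.91), Incenp (-2.58) and Stmn1 (-2.22) lower, where 2.33% were.

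The same lists were read within the immune class, for the 34 cells with 8 mitotic genes against the other immune cells of their pool, as ratios of CPM with no test, since the cells were chosen by their counts. Of the 42 further mitotic genes 29 were more than 2-fold higher in both sexes, of the 35 further replication genes 15, and a gene with at most 3 counts in the other immune cells of a sex has no ratio and is not counted. The share of all genes above 2-fold is not given here, so the counts of this paragraph have no background. The genes named here had at least 20 counts in the high cells of each sex, a limit that keeps genes through the cells where they are high. Mcm10, Tcf19, Atad2 and Chaf1a led the replication genes, at ratios of 9.55 to 44.7. Among the E2F family the atypical repressor E2f8 (113.5 and 637.9) and the pocket protein gene Rbl1 (9.64 and 2.90) were higher in both. Among the inhibitors Cdkn2c (10.2 and 11.3), which binds CDK4 and CDK6, Cdkn1a (3.41 and 5.195), the p53 target, and Cdkn1b (3.004 and 3.07) were higher. Of the 10 G1 cyclins and CDKs 0 were more than 2-fold higher in both sexes, and Ccnd1, under that limit with 14 counts in the male cells, was at 0.038 and 0.424 of the level of the other immune cells. Cdk4 stood at 1.28 and 1.25. Over the 16 immune mitotic-high cells alone 28 of the 42 further mitotic genes, 18 of the 35 further replication genes and 1 of the 10 G1 cyclins and CDKs were over 2-fold in both sexes. The cells compared also differed in markers: the 7 Kupffer cell genes stood at 0.004 (Timd4) to 0.746 (Adgre1) in the 8 male and 0.794 to 1.13 in the 26 female cells, and the 5 endothelial genes at 2.47 (Pecam1) to 76.0 (Tie1) in the male and 0.640 to 1.05 in the female cells. The male ratios thus set cells of partly different marker patterns side by side, and the part of this in the ratios was not tested.

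Some members share exons with a neighbour, and without strand in the counting their reads cannot be told apart from those of the neighbour. In the annotation 12 of the 40 do, and 6 share over 10% of their exonic bases: Kif20a 29.3% with Cdc23, Ube2c 22.8% with Tnnc2, Ccne2 17.4% with Ints8, Mcm7 12.6% with Ap4m1, Cops6, Mir25 and Mir93, Ccna2 12.5% with Exosc9 and Prc1 11.1% with Rccd1.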

How the data were processed

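Single liver cells were measured by Smart-seq2 (single-end sequencing, 50 bases, 1 plate per lane). The authors demultiplexed, mapped and counted the reads per gene and cell and deposited raw counts without normalization, after a quality filter that dropped cells of low or very high gene number, of low count, or rich in mitochondrial or spike-in reads. The submitters' processing notes name bcl2fastq, Bowtie, Bowtie2, featureCounts, Subread and Seurat and the builds GRCm38 and mm10, and whether duplicates were removed is not given in the sources used here. The 92 ERCC spike-ins were left out, which leaves 47063 to 1128421 counts per cell (median 228708) and medians of 88932 to 321121 counts per pool. Classes, clusters, sex and plate are the deposited annotation of each cell, and each of the 22 plates held cells of 1 sex.

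Counts were summed over the cells of each of the 8 pools and fitted by the quasi-likelihood test of edgeR 4.0.16 (R 4.3.3) after filterByExpr and TMM scaling, in a model of all 8 pools with the class as the term, and with class and sex for the sex difference. Each class was contrasted with the mean of the other 3, and p values were adjusted over the 24046 genes of the fit (Benjamini-Hochberg). Log2 fold changes come from this fit and CPM from the sums. The SE given is the absolute log2 fold change divided by the square root of the F statistic of the test. Shares of cells have exact binomial intervals at 95%, a share of 0 is given with the limit of 3 counts over the cells, and class shares were compared by exact permutation over pools. Scores, shares and promoter words were computed with Python 3.11.15, numpy 2.4.6, pandas 2.3.3 and scipy 1.17.1. The fit was tested on simulated data.

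Alternatives were DESeq2 1.42.0, no filter on low counts, cells thinned to 50000 counts, sums per plate, sums per cluster for the sex difference, a block for the sex of the pool, leaving out 1 pool at a time, other limits on mitotic genes per cell (6, 12, 20 counts per gene, a mitotic score over 0.2) and leaving out cluster #i4. Leaving out the plate with the most mitotic counts, and 20 counts together with leaving out #i4, were added after seeing the data. All 40 members may be named. Of other lists, up to 4 called genes with the largest fold change per comparison, and of cells with 8 mitotic genes, up to 4 genes with the largest ratio, are named. Ccnd1 and Cdk4 in the ratios were named outside this rule, after their values were seen. The members and lists were chosen with earlier results of these data known. Promoter windows, gene starts and overlaps come from RefSeq and the annotation on GRCm38.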

Additional observations from a re-analysis of the deposited data

How the results depend on the processing

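Immune cells had more mitotic genes called higher than any other class under every alternative run, but their number moved. Against 20 of 24, 11 of the 13 that passed the filter were called with sums per plate, where 10.5% of 15916 genes were, and 5 of 23 without cluster #i4. Against 4 of 16 replication genes these called 2 of 15 and 1. Leaving out a pool gave 8 to 17 mitotic and 1 to 5 replication genes. With DESeq2 the counts in the other classes changed to 3 higher and 3 lower mitotic and 3 lower replication genes in endothelial cells (1, 1 and 1 with edgeR), 11 lower mitotic, 1 higher and 2 lower replication genes in epithelial cells (4, 0 and 1), and 8 lower mitotic and 2 lower replication genes in mesenchymal cells (2 and 0), where DESeq2 called 8.27% of all genes higher and 10.6% lower in endothelial, 12.7% and 10.9% in epithelial and 11.3% and 6.66% in mesenchymal cells. DESeq2 called more genes in both directions, and the higher ones were a smaller share of its calls than with edgeR, 46.0% against 60.1% in immune, 43.8% against 64.3% in endothelial, 53.8% against 67.4% in epithelial and 63.0% against 80.2% in mesenchymal cells. Without the filter on low counts there were 2 higher mitotic and 2 lower replication genes in endothelial, 7 lower mitotic in epithelial and 4 lower mitotic and 1 lower replication gene in mesenchymal cells. With cells thinned to 50000 counts there were 2 higher and 0 lower mitotic genes in endothelial, 2 lower in epithelial and 1 lower in mesenchymal cells. Sums per plate gave 0 lower mitotic and 3 lower replication genes in endothelial cells and 1 higher and 0 lower replication genes in epithelial cells. Without #i4 there were 0 lower mitotic and 0 lower replication genes in endothelial, 2 lower mitotic in epithelial and 1 in mesenchymal cells, and without the plate with the most mitotic counts 0 and 2 lower mitotic genes in endothelial and epithelial cells. Leaving out a pool gave 0 or 1 higher and 0 or 1 lower mitotic and 0 or 1 higher and 0 to 2 lower replication genes in endothelial cells, 2 to 4 lower mitotic, 0 or 1 higher and 1 or 2 lower replication genes in epithelial cells, and 0 to 3 lower mitotic, 0 or 1 higher and 0 or 1 lower replication genes in mesenchymal cells. The cause of these changes was not tested.

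Pools of different classes share the label of sex and, within a sex, plates: 5 to 10 among male pools and 0 to 3 among female pools for each pair of classes. Their deviations from the class means correlated at 0.099 to 0.169 between classes. With the sex of the pool as a replicate block 19 mitotic and 4 replication genes were called higher in immune cells, 0 lower mitotic in endothelial and 1 in mesenchymal cells.

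The immune excess in cells with 8 mitotic genes, 4.57 percentage points, was 8.94 at 6 genes, 2.57 at 12, 2.40 at 20 counts per gene, 2.62 with thinned cells, 3.66 by score, 2.84 without the plate with the most mitotic counts, 1.88 without #i4 and 2.86 to 6.29 with a pool left out. Outside #i4, all Kupffer cells with 8 genes at 1 count lay on the plate with the most mitotic counts. At 20 counts without #i4, which holds all 16 immune cells at that limit, the immune share is 0 by construction and the difference -0.037, and the endothelial difference turned from -1.10 to 0.111. Of 35 single gene results, none changed direction in 280 refits with a pool left out and 120 were no longer called, and Rrm2 in immune cells turned to -0.135 without #i4. With 2 pools a class, the smallest of 39 cells, few degrees of freedom limit every call.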
